A study of Mus musculus with 12 samples.

Results

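The transcripts of glucose uptake and glycolysis followed here are those of 10 genes, chosen by name: Slc2a1, Hk1, Hk2, Pfkfb3, Pfkp, Aldoa, Pgk1, Eno1, Pkm and Ldha. They are 10 of 18876 genes listed in any library, and all 10 were among the 13967 genes that passed the filter on low counts. RNA-seq was done on primary brain cells labelled as oligodendrocyte progenitor cells, the glial precursors of myelinating oligodendrocytes, and all groups were wild-type mouse cells harvested at 12 h. The first group received hemin at 50 µM with interleukin-10 (IL-10) at 10 ng/mL and stattic at 2.5 µM, the second hemin at 50 µM with IL-10 at 10 ng/mL, the third hemin at 50 µM alone, and the fourth the vehicle DMSO. Hemin is heme with its iron oxidised, IL-10 acts on cells mainly by activating the transcription factor STAT3, and stattic is a small molecule that inhibits STAT3. Each group had 3 libraries, called below stattic, IL-10, hemin and vehicle replicates. No group received IL-10 or stattic without hemin, and the labels give neither the strain nor the age of the mice, nor whether replicates were separate cultures or animals, so each p-value reflects only how these libraries vary, which may be technical.

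Glycolysis converts glucose to pyruvate in the cytosol and yields ATP and NADH. Glucose enters through facilitative transporters such as GLUT1, the product of Slc2a1, is trapped by hexokinase, and is committed to glycolysis by phosphofructokinase, the step that Pfkfb3 activates through the signalling sugar it makes. Aldolase splits the product, later enzymes harvest ATP, and lactate dehydrogenase turns pyruvate into lactate while regenerating NAD. Oligodendrocyte-lineage cells are known for high use of glucose and for passing lactate to axons, and many of these genes are known targets of the hypoxia-inducible factor HIF1 and of Myc.

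The libraries held between 9404448 and 10266653 expected counts. The steepest deviation from the others was in stattic replicate 3, where the fifth of genes with the shortest transcripts had a median log2 deviation of 1.13 from the vehicle mean and the fifth with the longest transcripts one of -0.86. Hemin replicate 1 was next, at 0.47 and -0.46. In the other libraries with hemin these medians were 0.05 to 0.29 for the shortest and -0.20 to -0.09 for the longest. In vehicle libraries they were -0.05 to 0.06 and -0.01 to 0.01. The trend thus had the same direction in every library with hemin. In comparisons with vehicle, also after a length correction, the trend and hemin cannot be told apart. Markers of the labelled cell type were present in every library, but their summed level was 682 to 1686 CPM (counts scaled to library size) in stattic libraries, 1361 to 2197 CPM in IL-10 libraries and 1719 to 2422 CPM in hemin libraries, against 4397 to 5739 CPM in vehicle libraries. Astrocyte markers were high as well, at 841 to 3153, 732 to 1919 and 1560 to 2187 CPM in the groups with hemin, against 2030 to 5679 CPM in vehicle libraries. Markers of mature oligodendrocytes summed to 1410.0 to 10710.0 CPM with stattic, the highest in replicate 2, 1116 to 2341 CPM with IL-10 and 303.6 to 1716 CPM with hemin alone, against 2211 to 6190.0 CPM with vehicle, and none of 5 tested was called with hemin. In bulk RNA, fewer cells of a type and less RNA per cell cannot be told apart.

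Per unit of length (FPKM, fragments scaled for transcript length and depth), the members spanned a wide range of levels, with the enzymes from aldolase downward highest. In stattic and IL-10 cells Aldoa (aldolase) was the highest, at 675 ± 132 and 642 ± 53.5 FPKM (SD, n = 3), a range that overlapped that of Pkm in stattic cells and not in IL-10 cells, while with hemin alone Eno1 (enolase), at 591 ± 76.2 FPKM, was the highest and overlapped Aldoa, which overlapped Pkm (pyruvate kinase). In each group with hemin Slc2a1 was the sixth of the 10, at 64.8 ± 45.2 FPKM with stattic, 88.0 ± 57.3 with IL-10 and 79.9 ± 34.1 with hemin alone. In vehicle cells Eno1 averaged 522 ± 6.86 FPKM, Pkm 457 ± 9.44, Aldoa 360 ± 27.5, Ldha (lactate dehydrogenase A) 292 ± 22.7 and Pgk1 (phosphoglycerate kinase) 269 ± 21.5. Of these neighbours in the order, only Ldha and Pgk1 overlapped in range. Hk1 followed at 52.6 ± 7.19 FPKM, then Pfkfb3, Pfkp and Slc2a1 at 20.6 ± 8.12, 20.4 ± 6.64 and 17.2 ± 1.21 FPKM, whose ranges overlapped in turn, and Hk2 was lowest at 4.61 ± 0.60 FPKM. Slc2a1 was thus next to last in vehicle cells.

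Against vehicle, the transcript of the glucose transporter Slc2a1, and of no other member, rose with hemin at an adjusted p under 0.05 (edgeR quasi-likelihood test over all genes). Members called were 1 higher and 0 lower of 10, beside 20.9% of all tested genes called in either direction, 11.7% called higher and 9.15% lower, so the share of members called was not above the background. Members whose hemin and vehicle libraries did not overlap numbered 5, all higher in hemin (Slc2a1, Hk2, Aldoa, Eno1 and Pkm), beside 50.1% of all genes in either direction and 25.6% higher. The median log2 change of the members was 0.31, against 0.03 over all genes tested. DESeq2 called 3 members higher, adding Hk2 (adjusted p = 0.0265) and Aldoa (adjusted p = 0.0136), as did edgeR with only the compared groups.

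Slc2a1 encodes GLUT1. Its level was 299.5, 90.6 and 125 CPM in stattic replicates 1, 2 and 3, 362, 241 and 64.5 CPM in IL-10 replicates, 274, 223 and 98.9 CPM in hemin replicates and 36.0, 40.2 and 41.1 CPM in vehicle replicates. All 9 libraries with hemin lay above all 3 vehicle libraries, and replicate 1 was the highest of its group in each group with hemin. The spread was 5.61-fold among those 9 libraries against 1.14-fold among vehicle libraries. Against vehicle, 25.6% of all genes were higher throughout with hemin alone, 24.9% with IL-10 and 21.5% with stattic. The share over all 9 libraries was not determined, here or for Hk2 and Aldoa below. With hemin alone the mean of Slc2a1 was 198.6 ± 89.96 CPM, against 39.1 ± 2.74 CPM with vehicle (SD, n = 3), a 5.08-fold difference (log2 2.34, SE 0.60, 95% CI 1.03 to 3.65, adjusted p = 0.0183). The call is lost when any of 5 libraries is left out (hemin replicates 1 and 2 and each vehicle replicate, adjusted p up to 0.0699), and without hemin replicate 1 and stattic replicate 3 together the log2 change was 2.03 with an adjusted p of 0.0502.

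GLUT1 is also known to be abundant in the endothelium of brain vessels, and markers of endothelial and mural cells were higher in the same libraries. Their summed level was 36.7 to 41.4 CPM in stattic libraries, 30.2 to 42.5 CPM in IL-10 libraries and 45.2 to 75.9 CPM in hemin libraries, against 3.43 to 20.2 CPM in vehicle libraries. Of the 6 listed markers 5 were tested and 3 were called higher with hemin, beside 11.7% of all genes. The defining marker Cldn5 (claudin of the endothelial tight junction) was not tested, and had 0 counts in 6 of 12 libraries and at most 2 in any other. Pecam1, a surface molecule of endothelial and some blood cells, had 11.7, 25.3 and 28.8 CPM in hemin replicates 1, 2 and 3 and 0.46, 0.37 and 0.29 CPM in vehicle replicates. The summed endothelial and mural markers were 75.9, 55.3 and 45.2 CPM in hemin replicates 1, 2 and 3, the same order as Slc2a1. Pecam1 ran in the reverse order in these replicates. IL-10 replicate 1, the highest of its group for Slc2a1, was the lowest for the summed markers (30.2 CPM). The endothelial and mural list and the fibroblast list share the gene Pdgfrb, so their sums are not fully separate. Microglia markers summed to 75.95, 28.1 and 17.2 CPM in hemin replicates 1, 2 and 3 and to 4.95 to 15.8 CPM with vehicle. Fibroblast markers summed to 148, 16.6 and 34.0 CPM in hemin replicates and to 3.93 to 5.47 CPM with vehicle, so both sums were also highest in hemin replicate 1. In IL-10 replicates 1, 2 and 3 fibroblast markers summed to 6.80, 11.9 and 30.4 CPM, the reverse of the order of Slc2a1. Microglia markers there summed to 21.0, 13.3 and 7.07 CPM, the same order as Slc2a1. In stattic replicates 1, 2 and 3 the sums were 12.5, 6.60 and 54.1 CPM for fibroblast and 26.9, 74.6 and 26.9 CPM for microglia markers. The part of these cells in the level of Slc2a1 was not tested.

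**Figure D1:**
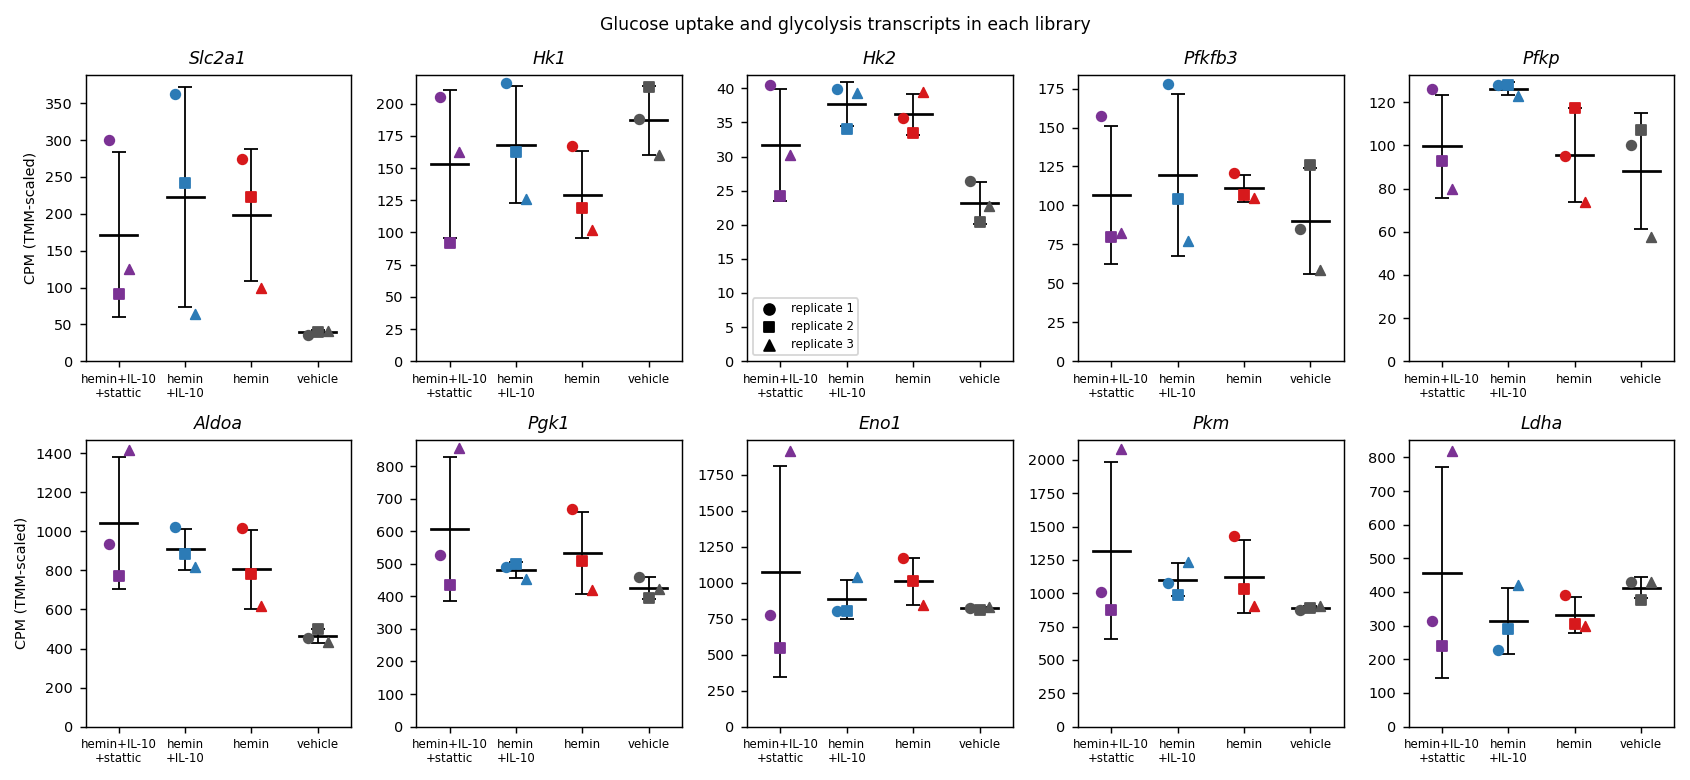
Level of each of the 10 members (CPM, linear axis from 0) in the 4 groups. Each point is a library, with its shape giving the replicate number, and the horizontal line and bar are the group mean and SD (n = 3). Slc2a1 and Aldoa lie above all vehicle libraries in all 9 libraries with hemin, and the share of all genes that do so was not determined. Stattic replicate 3 is the highest library for Aldoa, Pgk1, Eno1, Pkm and Ldha.

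Hexokinase catalyses the trapping of glucose in the cell, and its isozymes did not share a pattern. Hk2, the inducible isozyme, had 40.5, 24.2 and 30.3 CPM in stattic replicates, 39.82, 34.01 and 39.38 CPM in IL-10 replicates, 35.6, 33.4 and 39.5 CPM in hemin replicates and 26.4, 20.4 and 22.8 CPM in vehicle replicates. Of the 9 libraries with hemin, 8 lay above all vehicle libraries, the exception being stattic replicate 2. With hemin alone Hk2 averaged 36.2 ± 3.07 CPM against 23.2 ± 3.06 CPM with vehicle (log2 0.64, SE 0.22, 95% CI 0.15 to 1.13, adjusted p = 0.0610), and so it was not called. Hk1, the widely expressed isozyme, had 168, 119 and 102 CPM in hemin replicates and 189, 213 and 160 CPM in vehicle replicates, which overlap (log2 -0.53, 95% CI -1.21 to 0.15, adjusted p = 0.246).

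Pfkp and Pfkfb3 act at the committing step. Pfkp, a subunit of phosphofructokinase, had 94.9, 117 and 73.8 CPM in hemin replicates and 57.4 to 107 CPM in vehicle replicates. Pfkfb3, the enzyme that makes the activator of phosphofructokinase, had 121.1, 107.0 and 104.9 CPM in hemin replicates and 84.6, 126 and 58.6 CPM in vehicle replicates. For each gene the groups overlapped, and the log2 changes were 0.11 (95% CI -0.47 to 0.70) for Pfkp and 0.31 (95% CI -0.49 to 1.11) for Pfkfb3.

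Aldoa had the next highest log2 change after Slc2a1, although that of Hk2 was higher with a length correction (0.85 for Hk2 and 0.56 for Aldoa) and without hemin replicate 1 (0.65 for Hk2 and 0.59 for Aldoa). Aldoa had 936, 774 and 1420.0 CPM in stattic replicates, 1024, 883 and 816 CPM in IL-10 replicates, 1020.0, 783 and 617 CPM in hemin replicates and 452, 502 and 432 CPM in vehicle replicates. All 9 libraries with hemin lay above the vehicle libraries. With hemin alone it averaged 807 ± 203 CPM, against 462 ± 36.2 CPM with vehicle (log2 0.80, SE 0.28, 95% CI 0.20 to 1.40), and the adjusted p of 0.0577 did not reach the threshold.

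The enzymes after aldolase lay closer to vehicle. Pgk1, the first ATP-yielding step, had 669, 509 and 420 CPM in hemin replicates and 461, 394 and 424 CPM in vehicle replicates (log2 0.32, adjusted p = 0.430). Eno1 had 1173, 1011 and 847 CPM with hemin, above its narrow vehicle range of 813 to 830 CPM, and Pkm had 1429, 1034 and 906.3 CPM with hemin against 872, 891 and 906.3 CPM with vehicle. The lowest hemin library and the highest vehicle library for Pkm round to the same level. Their log2 changes were 0.30 (95% CI -0.53 to 1.13) for Eno1 and 0.34 (95% CI -0.37 to 1.04) for Pkm, and neither was called.

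Ldha, which makes lactate, was with Hk1 the only member whose change with hemin lay below 0. It had 392, 304 and 297.5 CPM in hemin replicates and 430.5, 377 and 430.2 CPM in vehicle replicates. The groups overlapped through hemin replicate 1, and the log2 change was -0.32 (95% CI -1.18 to 0.54, adjusted p = 0.602). Mouse processed copies of several of these abundant enzymes are known, and counting could split reads among them. Expected counts were whole numbers in every library for Aldoa, Pgk1 and Ldha. Some held fractions for Eno1 and Pkm, such as 7368.47 for Eno1 in stattic replicate 1 and 17317.99 for Pkm in stattic replicate 3. Whether such copies affected the level of any of these genes was not tested. Gene-level values do not separate the splice forms of Pkm.

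**Figure D2:**
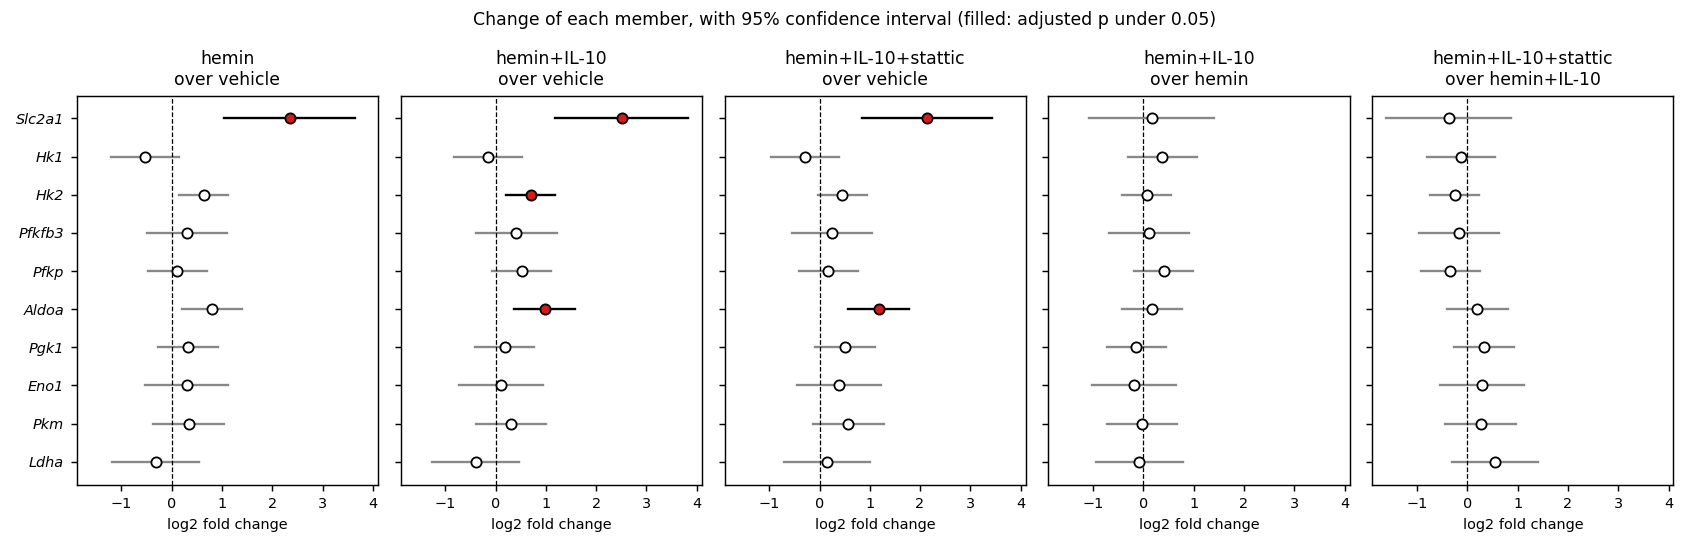
Log2 fold change of each member with its 95% confidence interval in 5 comparisons, the group named first being the numerator. Filled points have an adjusted p under 0.05. These are Slc2a1 in the 3 comparisons with vehicle, Aldoa in those of hemin with IL-10 and of hemin with IL-10 and stattic, and Hk2 in that of hemin with IL-10. The 2 panels on the right hold no filled point.

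Adding IL-10 to hemin asked what the cytokine changes in hemin-treated cells. No member was called, and no gene was called at all (0% of 13967 by edgeR, with 2.41% at an unadjusted p under 0.05, with 2 genes higher and 1 lower by DESeq2, 0 by limma, and 1 higher by edgeR with the replicate number as a block). Slc2a1 had 223 ± 150 CPM with hemin and IL-10 and 198.6 ± 89.96 CPM with hemin alone (log2 0.16, 95% CI -1.08 to 1.41), an interval wide enough to hold a change of more than 2-fold either way. Hk2 was bounded more closely, at 37.7 ± 3.24 CPM with IL-10 and 36.2 ± 3.07 CPM with hemin alone (log2 0.06, 95% CI -0.42 to 0.55). Pfkp was the member whose groups did not overlap, at 128.1, 127.9 and 123.0 CPM in IL-10 replicates and 94.9, 117 and 73.8 CPM in hemin replicates, beside 8.68% of all genes in either direction and 3.61% higher (log2 0.41, 95% CI -0.18 to 0.99, adjusted p = 0.999). Compared by replicate number, Hk1 was higher with IL-10 in all 3 pairs, at 216, 163 and 126 CPM in IL-10 replicates and 168, 119 and 102 CPM in hemin replicates, as were Pfkp and Aldoa. Aldoa was nearly level in replicate 1, at 1024 CPM with IL-10 and 1020.0 CPM with hemin alone. The share of all genes higher in all 3 pairs was not determined, so these members have no background to be read against. With the replicate number as a block in edgeR, the log2 changes were 0.38 for Hk1, 0.44 for Pfkp and 0.18 for Aldoa, with adjusted p of 0.864, 0.864 and 0.925. The median log2 change of the members was 0.09, against -0.01 over all genes.

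Adding stattic to hemin and IL-10 asked what inhibition of STAT3 changes. No member and no gene was called (0% of 13967 by edgeR and 0 genes by DESeq2 and limma, with 3.74% at an unadjusted p under 0.05 in edgeR), and the groups overlapped for all 10 members, where 5.36% of all genes did not overlap and 3.15% were higher throughout. The largest change in size was that of Ldha, at 458 ± 315 CPM with stattic and 313 ± 97.3 CPM without (log2 0.55, 95% CI -0.31 to 1.41, adjusted p = 0.921). Its stattic libraries had 314, 240 and 818 CPM, and without stattic replicate 3 the change was -0.18. The other enzymes from aldolase downward were also highest in stattic replicate 3, at 1915 CPM for Eno1 against 772 and 546 CPM in replicates 1 and 2, and at 2079 CPM for Pkm against 1011 and 870 CPM. Leaving out stattic replicate 3 turned the change of Eno1 to -0.43, of Pkm to -0.24, of Aldoa to -0.10 and of Pgk1 to -0.01. Slc2a1 had 172 ± 112 CPM with stattic and 223 ± 150 CPM without (log2 -0.37, 95% CI -1.62 to 0.87).

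The groups with IL-10 were also set against vehicle, with the same 3 vehicle libraries, so these are not independent of the comparison of hemin alone. With hemin and IL-10, 3 members were called higher and 0 lower, beside 21% of all genes called, 12.1% higher and 8.81% lower. Slc2a1 changed by log2 2.51 (SE 0.61, adjusted p = 0.0145), Aldoa by 0.97 (SE 0.28, adjusted p = 0.0282) and Hk2 by 0.70 (SE 0.22, adjusted p = 0.0438), and Pfkp and Pkm also lay above vehicle in all libraries without being called, so 5 members did not overlap vehicle, beside 49.2% of all genes and 24.9% higher. Leaving out each library in turn ended the call of Slc2a1 in 3 of 12 fits (without IL-10 replicate 1, vehicle replicate 1 or vehicle replicate 3), of Aldoa in 5 (without IL-10 replicates 1 or 2 or any vehicle replicate) and of Hk2 in 9 (all but those without a stattic replicate). The call of Hk2 was also lost with library totals (adjusted p = 0.0965), without the filter (0.0675), and in limma on log2(FPKM + 1) (0.121), on log2(FPKM + 0.1) (0.124) and on unfiltered log2(FPKM + 1) (0.142).

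With hemin, IL-10 and stattic, 2 members were called higher and 0 lower against vehicle, beside 24.9% of all genes called, 14.7% higher and 10.2% lower. The same 2 members did not overlap vehicle, beside 41.1% of all genes and 21.5% higher. Slc2a1 changed by log2 2.13 (SE 0.60, adjusted p = 0.0235) and Aldoa by 1.17 (SE 0.28, adjusted p = 0.0119), while Hk2 changed by 0.45 (95% CI -0.04 to 0.93, adjusted p = 0.161). Slc2a1 lost its call without stattic replicate 1, where the log2 change was 1.46, and without any one vehicle replicate (adjusted p up to 0.0832), and Aldoa without vehicle replicate 1 or 3 (adjusted p up to 0.0515). After a correction for transcript length, Aldoa changed by 0.74 (adjusted p = 0.0187) and Hk2 by 0.80 (adjusted p = 0.0237), now called.

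The members with short transcripts varied between libraries along with the length trend. Aldoa, Pgk1, Eno1, Pkm and Ldha have transcripts of 1518 to 2231 bases, and their median deviation from the vehicle mean was 1.22 (log2) in stattic replicate 3 and 0.65 in hemin replicate 1, the libraries with the steepest length trends, and -0.03 to 0.34 in the other 7 libraries with hemin. Hk1, Pfkp, Pfkfb3 and Hk2 have transcripts of 3925 to 5518 bases and their median deviation was -0.07 in stattic replicate 3, 0.33 in hemin replicate 1 and -0.02 to 0.69 in the other 7, so hemin replicate 1 lay within the range of the others. Correcting for length moved Aldoa with hemin alone to 0.56 (adjusted p = 0.0537) and Hk2 to 0.85 (adjusted p = 0.0172), and left Slc2a1 (2573 bases) at 2.29 (adjusted p = 0.0194). Within the members, the closest pair of profiles over the 12 libraries was Pgk1 and Pkm, with a root mean square difference of 0.15 (log2), and the farthest was Slc2a1 and Ldha, at 2.28.

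**Figure D3:**
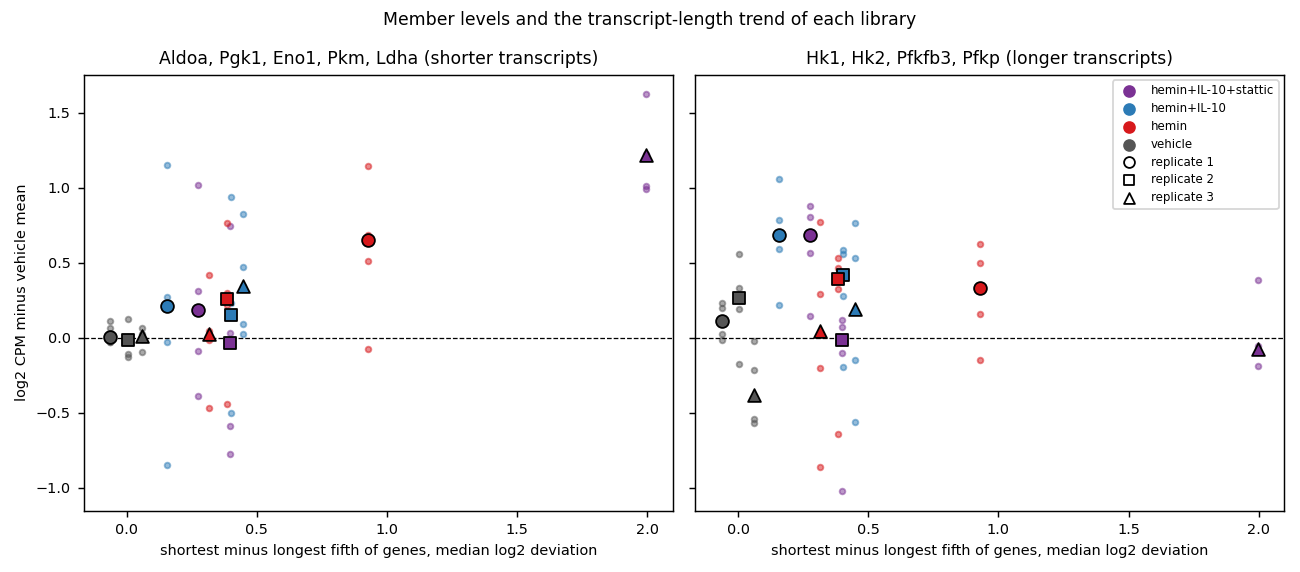
Log2 CPM minus the vehicle mean (vertical axis) against the transcript-length trend of each library, given as the median deviation of the fifth of genes with the shortest transcripts minus that of the fifth with the longest (horizontal axis, log2). Small points are members, large points their median in a library, with colour for the group and shape for the replicate. Slc2a1 is not drawn. In the left panel the steepest library, stattic replicate 3, has the highest median (1.22) and hemin replicate 1 the next (0.65).

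Shares of each member in the summed FPKM of its isozymes compare levels within a library. Over the 9 libraries with hemin and the 3 with vehicle, no share differed at an adjusted p under 0.05 (two-sided exact permutation test, adjusted over 6 shares). The smallest unadjusted p the design allows is 0.00909. A share alone at this p has an adjusted p of 0.0545. The test thus could not call a share alone, however clearly it was apart. These 9 libraries pool the hemin, IL-10 and stattic groups, and same-numbered libraries correlated for IL-10 against hemin. For stattic against IL-10 the correlation was 0.64 and 0.48 in replicates 1 and 3 but -0.05 in replicate 2. The 9 libraries are thus not 9 independent replicates of hemin, as the test takes them to be, and its p-values may be too small. The share of Hk2 in Hk1 plus Hk2 was 14.8% ± 3.51 (SD, n = 9) with hemin, from 11.5% to 21.7%, and 8.16% ± 1.56 (n = 3) with vehicle, from 6.36% to 9.09%, so the ranges did not overlap (exact permutation p = 0.00909, adjusted p = 0.0545). The share of Pfkp in the phosphofructokinase subunits Pfkp, Pfkl and Pfkm was 39.0% ± 9.92 with hemin and 22.4% ± 5.85 with vehicle (adjusted exact permutation p = 0.0545). Pfkl was itself called lower with hemin, at 35.9 ± 2.94 CPM against 82.3 ± 14.4 CPM with vehicle (log2 -1.20, adjusted p = 0.0274), a call lost without hemin replicates 1, 2 or 3 or vehicle replicates 1 or 3.

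Aldoa made up 89.6% ± 4.27 of Aldoa plus Aldoc with hemin and 76.3% ± 11.4 with vehicle, and Aldoc, the brain isozyme, was variable, at 463, 271 and 117 CPM in vehicle replicates. Astrocyte markers summed to 5679, 4663 and 2030.0 CPM in the same vehicle replicates, and their part in this share was not tested. Leaving out vehicle replicate 1 moved the difference in the Aldoa share from 13.3 to 7.34 percentage points. Ldha made up 60.1% ± 7.14 of Ldha plus Ldhb with hemin and 71.4% ± 4.26 with vehicle. Eno1 made up 97.7% ± 1.86 of Eno1 plus the neuronal isozyme Eno2 with hemin and 99.2% ± 0.43 with vehicle, a difference of -1.48 percentage points that was -0.90 without stattic replicate 2. For these 3 shares the adjusted exact permutation p was 0.0545. Slc2a1 made up 82.6% ± 9.85 of Slc2a1 plus Slc2a3 with hemin and 75.5% ± 1.41 with vehicle (adjusted exact permutation p = 0.255). Within single pairs of groups, 3 against 3 libraries cannot reach a p below 0.1.

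**Figure D4:**
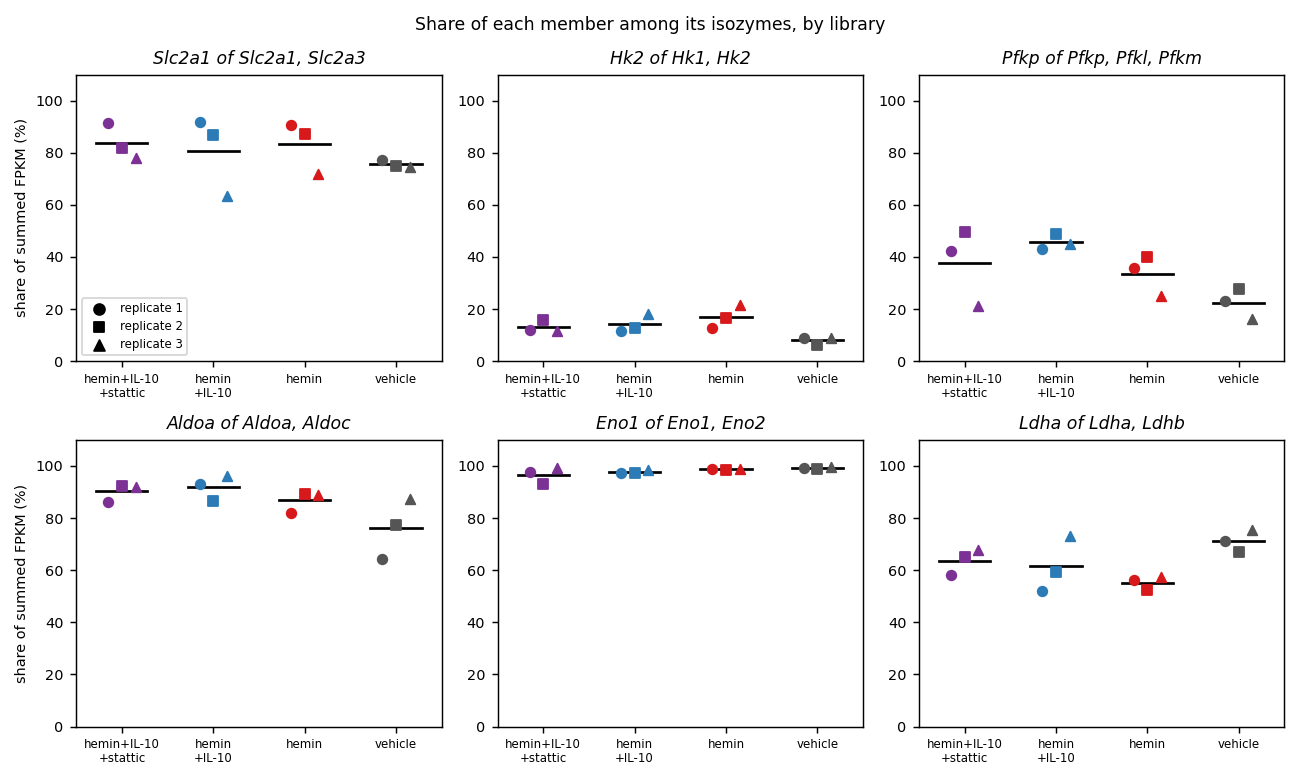
Share of a member in the summed FPKM of its isozymes (%, axis from 0) in each library, with lines for the group means and shapes for the replicate number. The share of Hk2 lies between 11.5% and 21.7% in the 9 libraries with hemin and between 6.36% and 9.09% in the 3 vehicle libraries, while the other shares overlap.

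The rest of the pathway moved in both directions. Over 88 tested genes of 9 lists around the members, 10 were called higher and 8 lower with hemin, 20.5% beside the background of 20.9%. Of all genes, 11.7% were called higher and 9.15% lower, with a median log2 change of 0.03, as background for each list below. Of 6 tested glucose transporters other than Slc2a1, 1 was called. Slc2a3, which encodes the high-affinity transporter GLUT3, had 44.3, 51.4 and 61.3 CPM in hemin replicates and 16.8, 21.4 and 22.4 CPM in vehicle replicates (log2 1.37, SE 0.24, adjusted p = 0.00336). Unlike Slc2a1, it was called in all 12 fits that leave out a library, and hemin replicate 3 was its highest hemin library but the lowest for Slc2a1.

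Of 14 tested enzymes of glycolysis outside the members, 1 was called higher (the low-abundance hexokinase Hk3, at 2.70 ± 1.44 CPM with hemin and 0.49 ± 0.51 CPM with vehicle) and 1 lower (Pfkl, above), with a median log2 change of 0.47. Hk3 was called in 3 of the 12 fits that leave out a library (without stattic replicate 2 or 3 or vehicle replicate 1), with an adjusted p up to 0.149, and its log2 change of 2.42 became 3.48 without vehicle replicate 1. The steps between the members included Gapdh, which had 2561, 2133 and 1450 CPM in hemin replicates and 1271, 1282 and 1243 CPM in vehicle replicates, apart but not called (log2 0.69, adjusted p = 0.133). Gpi1, which isomerises glucose phosphate, changed by 0.62 (adjusted p = 0.142), Tpi1 (triosephosphate isomerase) by 0.54 (adjusted p = 0.401) and Pgam1 (phosphoglycerate mutase) by -0.17 (adjusted p = 0.678). Pfkm changed by -0.33, Aldoc by -0.22, Eno2 by 0.98 and Ldhb by 0.70 with hemin, none of them called. Against vehicle, Eno2 was called higher with hemin and IL-10 (log2 1.51, adjusted p = 0.0304) and with stattic added (log2 1.83, adjusted p = 0.0129). Neuron markers summed to 605 to 999 CPM with stattic, 630 to 1049 CPM with IL-10 and 718 to 1097 CPM with hemin alone. With vehicle they summed to 836.5 to 1072 CPM. Of 6 tested, 1 was called higher with hemin (Snap25, log2 1.97), beside 11.7% of all genes, and 0 lower. That call held in 8 of 12 fits that leave out a library. The part of neurons in the level of Eno2 was not tested. Pgam2 and Pklr did not pass the filter.

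At the fate of pyruvate, 1 gene of 6 for lactate and pyruvate transport was called with hemin. Slc16a3, which encodes the lactate exporter MCT4, had 2.58, 1.74 and 1.10 CPM in hemin replicates and 0.28, 0.27 and 0.38 CPM in vehicle replicates (adjusted p = 0.0124), levels of a few counts in vehicle libraries. Of 11 genes of pyruvate dehydrogenase and its regulators, Pdp1, a phosphatase that activates the complex, rose (log2 1.16, adjusted p = 0.00721) and Pdk1, a kinase that inhibits it, fell (log2 -0.90, adjusted p = 0.0247). The call of Pdp1 held in all 12 fits that leave out a library, while that of Pdk1 was lost in 5, without any hemin replicate or vehicle replicate 1 or 2 (adjusted p up to 0.110), and that of Slc16a3 without vehicle replicate 1 or 2 (adjusted p up to 0.0540). None of the 7 genes of the pentose phosphate pathway was called with hemin (median log2 change 0.64, against 0.03 over all genes). Neither was any of 3 tested regulators of fructose bisphosphate. In gluconeogenesis and glycogen metabolism 2 of 11 rose (Pygl, a glycogen phosphorylase, by 1.42 and Pgm2, a phosphoglucomutase, by 0.93) and 2 fell (Pygb, the brain glycogen phosphorylase, by 1.43 and Gys1, a glycogen synthase, by 0.98 on the log2 scale). In those 12 fits Pygl lost its call without hemin replicate 2 or vehicle replicate 2, Pgm2 without hemin replicate 1 or 2 or vehicle replicate 1 or 3, Pygb without IL-10 replicate 2, any hemin replicate or vehicle replicate 1 or 2, and Gys1 without hemin replicate 2 or 3 or any vehicle replicate, with adjusted p up to 0.0656, 0.110, 0.181 and 0.102 in that order.

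Of 14 tested regulators of glycolytic genes, 4 were called lower and 1 higher with hemin, beside 9.15% of all genes lower and 11.7% higher. Those lower were Egln1 (log2 -1.14, adjusted p = 0.00296), a prolyl hydroxylase that marks HIF1 for destruction, its relative Egln2 (-0.76), Vhl (-0.74), which recognises the marked protein, and the forkhead transcription factor Foxk2 (-0.69). Mycn, a Myc family factor, was higher (1.11, adjusted p = 0.0171). Of these only Egln1 kept its call in all 12 fits that leave out a library. Egln2 lost it without hemin replicate 2 or 3 or any vehicle replicate (adjusted p up to 0.109), Vhl and Foxk2 without hemin replicate 2 or any vehicle replicate (up to 0.0990 and 0.0951), and Mycn without hemin replicate 2 or vehicle replicate 2 or 3 (up to 0.0883). Of 16 hypoxia targets outside glycolysis 3 were called, all higher, beside 11.7% of all genes higher. Their median log2 change was 0.54, against 0.03 over all genes. Adm, which encodes adrenomedullin, had 23.7, 12.5 and 5.21 CPM in hemin replicates and 0.19, 1.01 and 1.33 CPM in vehicle replicates (log2 4.02, adjusted p = 0.00956). Ndrg1, a stress-induced gene, changed by 2.47 (adjusted p = 0.0292) and P4ha1, a collagen prolyl hydroxylase, by 0.73 (adjusted p = 0.0392). Adm was called in all 12 fits, with a log2 change of 3.37 without hemin replicate 1. Ndrg1 lost its call without hemin replicate 1 or 2 or any vehicle replicate (adjusted p up to 0.104), and P4ha1 without these or IL-10 replicate 1 or 2 (adjusted p up to 0.152). These lists were drawn up with earlier results of these data known, and no gene of any list was called for IL-10 over hemin or for stattic over IL-10.

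The genes whose profile over the 12 libraries was nearest that of Slc2a1 were Ypel5, Pamr1, Otud1, Ccdc85b and Esd. The measure was the root mean square difference of log2 CPM centred on the vehicle mean, which was 0.30, 0.31, 0.33, 0.33 and 0.36 for these genes. Its median was 2.02 over the tested genes, with predicted and unnamed gene models left out of the ranking and the median. Pamr1 lay near the floor in vehicle libraries, at 0.37, 0.27 and 0.095 CPM. Ypel5 had 244, 92.6 and 116 CPM in stattic replicates, 238, 192 and 64.1 CPM in IL-10 replicates, 221, 130 and 68.9 CPM in hemin replicates and 26.2, 24.7 and 28.7 CPM in vehicle replicates. Ypel5 was highest in replicate 1 of each group with hemin, as was Slc2a1. This likeness follows from choosing Ypel5 by its profile over the same libraries.

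Promoter sequences are shown for Slc2a1, the member called with hemin alone, for Aldoa and Hk2, the members called in further comparisons with vehicle, and for Ldha, which was not called, so that their motif content can be set side by side. They are RefSeq sequences of mouse build GRCm38.p6, from 250 to 30 bases before an annotated start, 5′ to 3′ on the gene's strand. The sources used here do not name the build of the deposited files. Capitals mark ACGTG, the core of the hypoxia response element, or its reverse complement CACGT. Every window shown holds this motif, while the most upstream start of Aldoa, not shown, lacks it. Of the members not shown, Hk1, Pfkp and Eno1 lack it at all listed starts, and Pfkfb3, Pgk1 and Pkm hold it at some start. Slc2a1 lies on the + strand at chr4:119108495-119108715, Aldoa (the second of 3 listed starts) on the - strand at chr7:126799284-126799504, Hk2 on the - strand at chr6:82774484-82774704 and Ldha (the first of 2 listed starts) on the + strand at chr7:46845554-46845774.
Slc2a1: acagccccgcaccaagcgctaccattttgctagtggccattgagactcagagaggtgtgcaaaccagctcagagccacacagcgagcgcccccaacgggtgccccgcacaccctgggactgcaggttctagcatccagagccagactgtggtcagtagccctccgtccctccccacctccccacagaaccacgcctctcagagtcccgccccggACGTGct
Aldoa: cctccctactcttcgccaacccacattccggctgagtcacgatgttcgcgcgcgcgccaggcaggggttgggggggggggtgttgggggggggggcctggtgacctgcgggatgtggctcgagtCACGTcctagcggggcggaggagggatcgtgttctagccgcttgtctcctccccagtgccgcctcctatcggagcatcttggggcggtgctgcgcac
Hk2: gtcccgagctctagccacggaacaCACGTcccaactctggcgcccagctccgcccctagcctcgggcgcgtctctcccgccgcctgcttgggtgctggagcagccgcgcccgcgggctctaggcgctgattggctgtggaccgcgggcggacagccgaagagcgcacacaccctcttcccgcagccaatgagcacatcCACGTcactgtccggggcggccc
Ldha: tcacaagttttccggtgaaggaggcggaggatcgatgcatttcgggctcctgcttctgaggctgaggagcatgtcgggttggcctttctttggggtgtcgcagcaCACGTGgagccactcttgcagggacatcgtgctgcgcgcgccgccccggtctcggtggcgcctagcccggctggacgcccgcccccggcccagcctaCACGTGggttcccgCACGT

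Within 250 bases before the start, ACGTG or its reverse complement began once in Slc2a1, at position -36, once in the shown Aldoa window, at -126, and at -226 and -52 in Hk2. In Ldha it began at -145, -144, -48, -47 and -34, where neighbouring positions are the overlapping strands of the palindrome CACGTG. At the most upstream listed start, 5 of the 10 members held ACGTG on either strand (Slc2a1, Hk2, Pfkfb3, Pgk1 and Ldha), as did 16.6% of 32544 RefSeq windows of the same length, and at any listed start 7 did. The E-box CACGTG, which contains ACGTG on both strands, was held by Ldha alone at that start, against 6.03% of windows. At any start it was held by Pfkfb3 and Ldha. No member held TGACTCA, the AP-1 motif (4.46% of windows), TGACNNNGC, the antioxidant response element (10.2%), or TGATGNAA, the C/EBP-ATF composite element (3.4%), at that start. At other listed starts TGACTCA was in Aldoa and TGACNNNGC in Hk1 and Aldoa, both overlapping as reverse complements in the Aldoa window shown. At the most upstream start 7 members held GGGCGG, the GC box (33% of windows), and 9 did at any start. The percentages are shares of single windows and leave out chromosome 18. Counts at any start draw on 18 windows for the 10 members and cannot be set against them. A match is a run of letters in this window only. Any link between the matches and the changes of the members was not tested.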

How the data were processed

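The members were chosen by name, and they, the lists and the alternatives were chosen with earlier results of these data known. Libraries of total RNA carried dUTP in their second strand and were read on DNA nanoballs, per the labels' protocols. Tools named in the submitters' processing notes, without roles or versions, are RSEM, Bowtie2, Bowtie, HISAT, StringTie, TopHat, Cufflinks and CASAVA. The authors' files give, per the file headers, expected counts (estimated reads per gene, not normalised) and FPKM. The sources used here state neither the genome build nor whether strand was used in counting, so antisense or overlapping reads cannot be told apart. Genes missing from a file were taken as 0. Counting error alone is small for the members, at 9404448 to 10266653 counts per library, and the spread between libraries limits precision.

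Expected counts were rounded and tested with edgeR 4.0.16 (R 4.3.3): filterByExpr, TMM scaling, a robust quasi-likelihood fit to all 12 libraries with 1 mean per group, and Benjamini-Hochberg adjustment over 13967 genes. Genes with an adjusted p under 0.05 were called. CPM are counts scaled by TMM. The code was tested on simulated data. Alternatives were other scalings, DESeq2 1.42.0, limma 3.58.1 on log2(FPKM + 1) and log2(FPKM + 0.1), voom, no filter, only the compared groups, a length correction, a replicate block, and leaving out libraries. The text names all members, their isozymes, the steps between them, up to 4 called genes per list with the smallest adjusted p in hemin against vehicle, and the 5 profiles nearest to Slc2a1. Egln2, Eno2 in the groups with IL-10, Pecam1 and Cldn5 were added after their values were seen. Replicate numbers come from the labels. Deviations of same-numbered libraries correlated at 0.37, 0.17 and 0.61 for hemin with IL-10 against hemin, where the numbers were taken to pair the samples, and at 0.1 or less for some pair in every other comparison. For stattic against IL-10 these correlations were 0.64, -0.05 and 0.48 in replicates 1, 2 and 3.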

Additional observations from a re-analysis of the deposited data

How the results depend on the processing

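Depth was similar across libraries, and the spread between 3 replicates, not counting error, set what could be called. Library totals in place of TMM moved the median of all genes by over 0.1, to -0.07 for hemin, -0.13 for hemin with IL-10 and -0.14 for hemin with IL-10 and stattic against vehicle, compared with 0.03, 0.00 and 0.10. The cause of the changes below was not tested. Members higher with hemin, 1 in the reported fit, numbered 3 by DESeq2, 3 with only the compared groups, 2 with the replicate block, 2 with the length correction and 3 with the replicate block and length correction. Members higher with IL-10 against vehicle fell to 1 on unfiltered log2(FPKM + 1), and with stattic to 1 on log2(FPKM + 1) with or without the filter. Leaving out 1 library gave 0 to 3, 0 to 3 and 0 to 2 members higher with hemin, with IL-10 and with stattic against vehicle. Alternatives other than leaving out 1 library kept the call of Slc2a1 in 12 of 13 for hemin, 12 of 13 for IL-10 and 11 of 13 for stattic against vehicle. Where the numbers pair the samples, for IL-10 against hemin, the replicate block called 0 members.

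All genes called higher with hemin were 1639, against 974 on log2(FPKM + 1), 1053 on log2(FPKM + 0.1), 1052 on unfiltered log2(FPKM + 1) and 2603 with replicate block and length correction. Genes lower were 1278, against 2113 with only the compared groups and 2185 with replicate block and length correction. For IL-10 against vehicle, 1696 higher became 896, 1021, 834 and 2717 in the same order and 2572 without the 2 libraries of steepest length trend, and 1231 lower became 1916 with the compared groups, 2304 with block and length correction and 1974 without those 2 libraries. For stattic against vehicle, 2048 higher became 952, 1125 and 849 on the 3 FPKM settings and 958 with the compared groups, and 1424 lower became 2208 with library totals, 2384, 2349 and 2152 on the FPKM settings, 692 with the compared groups and 2142 with block and length correction. For IL-10 against hemin, 0 higher became 1 without the filter, 2 by DESeq2, 1 with the replicate block and 1 with block and length correction, and 0 lower became 1 by DESeq2. Leaving out 1 library gave 803 to 2287 higher and 442 to 1969 lower for hemin, 724 to 2403 and 423 to 1824 for IL-10 and 916 to 2186 and 692 to 1724 for stattic, each against vehicle, and 0 to 1 higher for IL-10 against hemin. It gave shares of Hk2, Pfkp and Eno1 that differed from vehicle by 5.72 to 7.08, 13.5 to 19.3 and -1.70 to -0.90 percentage points, each passing the threshold in 1 of 12 fits. With 1 library fewer the smallest p the design allows is larger, so there too a share alone could not pass.

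Signs turned only for uncalled members. Against vehicle, with library totals Pfkp became -0.00034 with hemin and -0.042 with stattic, Eno1 -0.020 with IL-10 and Ldha -0.15 with stattic. With log2(FPKM + 1), with or without the filter, and log2(FPKM + 0.1), Eno1 became -0.044 and -0.0441 with IL-10 and -0.0617 and -0.0620 with stattic, and Ldha -0.303 and -0.304 with stattic. With the length correction Eno1 became -0.011 with IL-10 and -0.036 with stattic and Ldha -0.34 with stattic, and with the block added -0.026, -0.090 and -0.40. Without the 2 steepest libraries Eno1 became -0.32 and Ldha -0.58 with stattic, and by voom Ldha -0.052. For IL-10 against hemin, Slc2a1 became -0.0508 and -0.0553 on the FPKM scales and -0.031 by voom. The length correction gave Hk2 -0.00093, Ldha 0.0012 and Pkm 0.019, the block with length correction Pfkfb3 -0.0039 and Pkm 0.0054, and leaving out the 2 libraries Ldha 0.071, Pgk1 0.069 and Pkm 0.20. For stattic against IL-10, Aldoa became -0.11 with length correction, -0.10 with the block added and -0.10 without the 2 libraries, and Eno1 -0.025, -0.064 and -0.43, and -0.0177 and -0.0179 on the FPKM scales. Without the 2 libraries Ldha was -0.18, Pgk1 -0.012 and Pkm -0.24. Leaving out 1 library gave, against vehicle, Pfkp -0.12 to 0.28 with hemin, Hk1 -0.38 to 0.014 and Eno1 -0.035 to 0.17 with IL-10, and Pfkfb3 -0.15 to 0.58, Pfkp -0.056 to 0.34, Eno1 -0.32 to 0.71 and Ldha -0.58 to 0.45 with stattic. For IL-10 against hemin it gave Slc2a1 -0.38 to 0.60, Pfkfb3 -0.29 to 0.35, Pgk1 -0.29 to 0.062, Pkm -0.16 to 0.19 and Ldha -0.35 to 0.10. For stattic against IL-10 it gave Slc2a1 -1.04 to 0.17, Hk1 -0.41 to 0.13, Pfkfb3 -0.56 to 0.23, Aldoa -0.10 to 0.38, Pgk1 -0.013 to 0.52, Eno1 -0.43 to 0.60, Pkm -0.24 to 0.49 and Ldha -0.18 to 0.86.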
